A study of Mus musculus with 9 samples.

Results

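Transcription was read at 8 genes of the hypoxia response and glycolysis, Bnip3, Ankrd37, P4ha1, Slc2a1, Slc2a3, Ldha, Pkm and Eno1, in mouse embryonic stem cells. The assay was PRO-seq, a nuclear run-on method in which the nascent RNA of engaged RNA polymerase is labelled and sequenced. The units were bidirectional regions, places where polymerase departs along both strands. Reads were counted within 600 bp around each centre, on mm10 coordinates. A window belonged to a gene when its centre lay inside the gene, or within 2 kb of either end of it, in the RefSeq annotation. By this rule 30 of 174289 windows belonged to the 8 genes, which are 8 of 49943 annotated genes.

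All libraries came from cells of the genotype Firre KO / Firre inducible transgene, so every group, untreated cells included, lacked the endogenous gene for the long non-coding RNA Firre and carried a transgene switched on by doxycycline. The 3 groups were untreated cells (0 min, no doxycycline) and cells exposed to 1 ng/μL doxycycline for 15 or 30 min, with 3 libraries each. The cells grew on gelatin with LIF and the inhibitors PD0325901 and CHIR99021. No group received doxycycline without the transgene, so an effect of the drug cannot be told apart from one of Firre. The labels do not give the transgene's promoter or number of clones, nor whether the libraries are from different cultures, and the p-values reflect how far these libraries scatter, part of which may be technical. The samples are bulk nuclei, in which fewer transcribing cells and less transcription per cell cannot be told apart.

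Hypoxia-inducible factors are dimers of an oxygen-labile alpha subunit and ARNT. When oxygen is plentiful, prolyl hydroxylases mark the alpha subunit for destruction through VHL. When oxygen falls, the dimer binds short sites with the core RCGTG at genes for glucose uptake, glycolysis and mitochondrial turnover. Pluripotent stem cells in culture use glycolysis. The data used here hold no measure of oxygen or metabolism.

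Libraries held 3813365 to 5980366 reads in windows, and a count of 3 equals 0.500 to 0.787 CPM, the count per library size after scaling by TMM factors. Firre signal was 2.48 to 4.92 CPM at 0 min, 274 to 338 CPM at 15 min and 776 to 791 CPM at 30 min, as the labels say. The end windows of 8 embryonic stem cell marker genes summed to 1759 to 2021 CPM per library, while 2 of the 10 listed markers, Pou5f1 and Esrrb, had no window at an end. Fibroblast markers summed to 0.932 to 3.50 CPM, primitive endoderm markers to 2.33 to 5.91 CPM, mesoderm markers to 7.27 to 11.1 CPM and neuroectoderm markers to 24.2 to 47.1 CPM. Of the neuroectoderm markers tested, 1 of 4 was called lower at 15 min, and no marker of the other lists was called in any comparison. Library 3 of 15 min stood apart, scoring 85.6 on a principal component that held 13.9% of the variance, against -55.1 to 16.5 for the other 8 libraries. With it left out the called windows of the 8 genes numbered 6 at 15 min and 5 at 30 min, against 5 and 4 with all 9 libraries. These were the highest counts with 1 library left out, and the lowest, 2 and 0, came without 0 min library 1.

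The 5 promoters below are among the start sites beside which windows of these genes lie. Of these 5, 4 carry the letters of the hypoxia response element. The same holds for promoters of P4ha1 and Eno1, which are not printed. They come from the RefSeq promoter table of GRCm38.p6, the assembly of mm10, and run from 250 bases before to 50 bases after the start on the strand of the gene. Capitals mark every match to ACGTG or GCGTG on either strand, with matches that overlap run together. The table lists 11 promoters for 7 of the 8 genes, and Slc2a3 has none.

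Bnip3, chr7:138909457-138909756, minus strand: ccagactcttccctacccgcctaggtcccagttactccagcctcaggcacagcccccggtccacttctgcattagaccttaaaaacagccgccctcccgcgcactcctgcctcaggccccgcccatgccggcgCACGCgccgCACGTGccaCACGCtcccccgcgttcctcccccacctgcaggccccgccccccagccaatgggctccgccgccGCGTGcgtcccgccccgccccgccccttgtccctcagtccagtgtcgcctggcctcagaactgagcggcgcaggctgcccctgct
Ankrd37, chr8:45999801-46000100, minus strand: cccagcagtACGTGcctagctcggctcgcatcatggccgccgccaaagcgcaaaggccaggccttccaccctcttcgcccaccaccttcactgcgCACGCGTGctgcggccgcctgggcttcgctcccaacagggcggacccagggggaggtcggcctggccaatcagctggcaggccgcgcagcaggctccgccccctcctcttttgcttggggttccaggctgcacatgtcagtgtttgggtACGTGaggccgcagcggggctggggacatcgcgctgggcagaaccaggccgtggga
Slc2a1, chr4:119108495-119108794, plus strand: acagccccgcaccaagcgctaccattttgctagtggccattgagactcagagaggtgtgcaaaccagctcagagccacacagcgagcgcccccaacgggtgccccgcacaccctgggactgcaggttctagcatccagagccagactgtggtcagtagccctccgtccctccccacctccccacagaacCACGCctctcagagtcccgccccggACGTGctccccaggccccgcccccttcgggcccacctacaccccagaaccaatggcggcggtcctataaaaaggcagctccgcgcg
Ldha, chr7:46845554-46845853, plus strand: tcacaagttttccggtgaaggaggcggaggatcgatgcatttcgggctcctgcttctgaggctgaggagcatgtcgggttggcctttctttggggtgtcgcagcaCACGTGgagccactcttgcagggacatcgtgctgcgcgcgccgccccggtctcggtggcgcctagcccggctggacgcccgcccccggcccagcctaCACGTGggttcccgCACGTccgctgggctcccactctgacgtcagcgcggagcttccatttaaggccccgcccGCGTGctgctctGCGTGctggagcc
Pkm, chr9:59656326-59656625, plus strand: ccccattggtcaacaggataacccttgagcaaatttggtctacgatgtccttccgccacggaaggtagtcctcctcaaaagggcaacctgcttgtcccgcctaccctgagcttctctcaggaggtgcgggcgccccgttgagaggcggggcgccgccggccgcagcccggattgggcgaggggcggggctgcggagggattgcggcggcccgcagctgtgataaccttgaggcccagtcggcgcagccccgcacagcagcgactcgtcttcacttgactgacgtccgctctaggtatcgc

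The Bnip3 promoter has 4 separate stretches of matches, of which the second is the palindrome CACGTG with a match on each strand. The Ldha promoter has 5 stretches, including CACGTG at 2 places. Ankrd37 has 3, one of them a GCGTG match on each strand sharing letters, and Slc2a1 has 2. The Pkm promoter printed has 0 matches, while the promoter of its other listed start has 2. The promoters not printed hold 3 stretches at P4ha1, 2 at the other start of Ldha and 2 at each of the 3 starts of Eno1. In all, 10 of 11 promoters of these genes held a match, against 43.8% of the 32851 promoters in the table. The 11 are not independent, since Ldha, Pkm and Eno1 enter with several starts. Of the Eno1 promoters 2 overlap and share the same matches. At least 2 stretches stood in 17.3% of all promoters, at least 3 in 6.55%, at least 4 in 2.44% and at least 5 in 0.767%. CACGTG stood in a promoter of 2 of the 7 genes and in 7.15% of all promoters. These promoters were also richer in G and C, at 56.7% to 71.7% with a median of 67.3%, against a median of 52.7%, and held 13 to 32 CpG against a median of 7. How far base composition accounts for the number of matches was not tested. A match is a description of the letters and not a measured binding site.

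Of the 30 windows, 24 were centred inside a gene, 12 lay within 1 kb of an annotated gene end, and 10 lay within 500 bp of a RefSeq start. The authors' regions under these windows were 152 to 4984 bp wide with a median of 613 bp, against 342 bp over all regions. At least 1 kb wide were 26.7% of them, against 9.86% of all regions. The windows held 64 to 10457 reads over the 9 libraries, with a median of 445.5 against 27 over all windows. After the filter on low counts 29 of the 30 were tested among 54299, and the window left out was bidir_147297 at Bnip3, with 64 reads. It lay 12 bp inside the start and overlapped bidir_147296. In all, 8 of the 30 windows overlapped another window, and the sources used here do not give how the authors counted reads in shared bases.

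All windows are 600 bp, so their levels can be set side by side without a correction for width. For the 7 genes with a listed promoter, so not for Slc2a3, the strongest window within 500 bp of a RefSeq start was taken. It need not be the nearest: windows closer to the start at Bnip3, Ldha and Slc2a1 were weaker. The centres lay from 162 bp upstream of a start at Pkm to 427 bp inside at Slc2a1. The order of the genes may therefore reflect window position as well, which was not tested. At 0 min this window was highest at Eno1 (bidir_116601, 138 ± 17.1 CPM, mean ± SD, n = 3), whose product enolase makes phosphoenolpyruvate. Pkm, for pyruvate kinase, followed at 99.5 ± 3.03 CPM in bidir_160298, and Ldha, for the lactate dehydrogenase subunit that turns pyruvate to lactate, at 64.7 ± 7.43 CPM in bidir_141588. Slc2a1 stood at 52.1 ± 12.0 CPM in bidir_112277, Ankrd37 at 44.1 ± 5.89 CPM in bidir_150761 and P4ha1 at 32.4 ± 7.20 CPM in bidir_18306. Bnip3 was lowest, at 14.6 ± 2.87 CPM in bidir_147296. The ranges over libraries of Ldha and Slc2a1 overlapped, as did those of Slc2a1 and Ankrd37 and of Ankrd37 and P4ha1. Within each 0 min library, however, Ldha lay above Slc2a1 and Ankrd37 above P4ha1. Slc2a1 lay below Ankrd37 in 0 min library 2 (39.2 against 39.8 CPM) and above it in the others. Differences between genes were not tested. Eno1 and Pkm, Pkm and Ldha, and P4ha1 and Bnip3 did not overlap.

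The first question was what changed at these genes by 15 min of Firre induction. Bnip3 fell beside its start, 2 windows inside the annotated span of Slc2a3 rose, and a window past the far end of Ankrd37 fell. By edgeR's quasi-likelihood test with Benjamini-Hochberg adjustment over all tested windows at 0.05, 5 of 29 windows were called at 15 min, 2 higher and 3 lower. Of all tested windows 8.25% were called, 4.29% higher and 3.96% lower. Of the 11 tested windows of these genes at gene ends, 3 were called lower and 0 higher. Of all tested windows at gene ends 7.96% were called lower and 1.81% higher. Of the 18 away from gene ends 2 were called higher and 0 lower. Gene ends are those of the annotated span, so the 18 include windows beside a start of Ldha. These are bidir_141587, centred 33 bp upstream of that start, and bidir_141588, centred 320 bp inside it. The windows of these genes also held more reads (median 445.5 against 27), and shares were not compared at like depth. The median log2 change of the 29 windows was -0.12, against 0.02 for all tested windows and -0.16 for tested windows at gene ends. With scaling on gene-end windows alone the median of all windows became 0.18 and that of the 29 became 0.03, with 15 above 0 and 14 below, so the direction of the group as a whole depends on the scaling. The called windows at 15 min then numbered 4, 2 higher and 2 lower, where over all windows 4132 were called higher and 999 lower in place of 2331 and 2148. The 2 groups did not overlap in 11 of the 29 windows, 8 of them lower at 15 min, against 25.5% and 11.8% of all tested windows.

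At 30 against 0 min 4 of 29 windows were called by the same test, 2 higher and 2 lower, against 1.74% of all tested windows, 1.24% higher and 0.497% lower. The 2 lower were among the 11 at gene ends, and of all tested windows at gene ends 0.768% were called lower and 0.485% higher. Of the 4 called windows 3 were also called at 15 min, while 2 windows were called at 15 min alone and 1 at 30 min alone. Both comparisons share the 0 min libraries. The groups did not overlap in 10 windows, 7 of them lower at 30 min, against 20.4% and 9.39% of all tested windows. The median log2 change of the 29 windows was -0.21, against -0.00 for all tested windows and -0.12 for tested windows at gene ends. With scaling on gene-end windows it was -0.11, against 0.10 for all tested windows. Between 30 and 15 min 0 of 29 windows were called by edgeR and 0 by DESeq2, where 0.704% of all tested windows were called by edgeR, and 1 of the 29 had an unadjusted p under 0.05. The groups did not overlap in 7 windows, 4 of them lower at 30 min, against 16.0% and 8.17% of all tested windows.

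**Figure D1:**
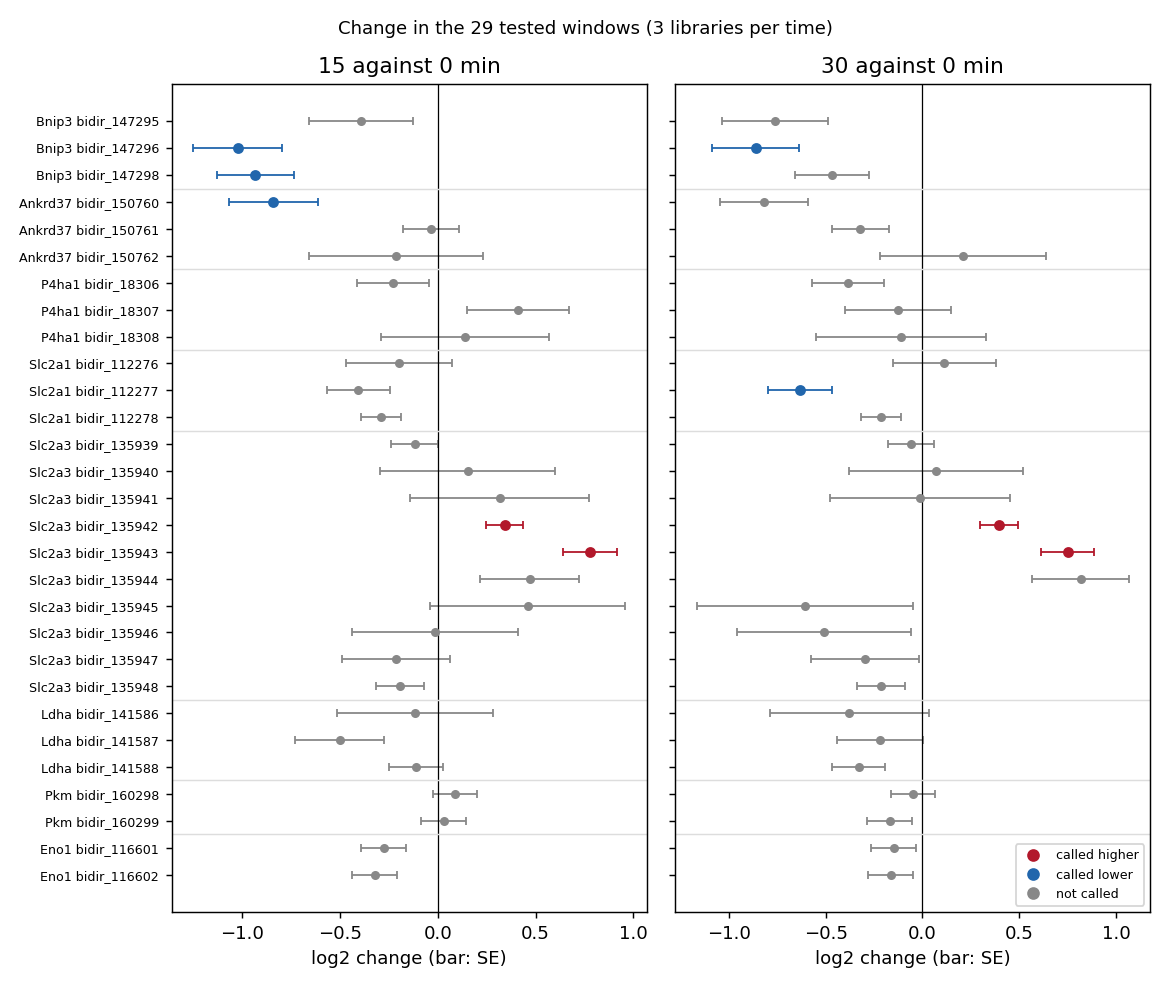
Log2 change at 15 and at 30 min against 0 min in each of the 29 tested windows, with its SE as a bar, grouped by gene. Red and blue mark windows called higher or lower by edgeR, 5 at 15 min and 4 at 30 min, and grey marks the rest; the called changes are at Bnip3, Ankrd37, Slc2a1 and Slc2a3.

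Bnip3 encodes a mitochondrial outer membrane protein that marks mitochondria for autophagy and is a standard target of hypoxia-inducible factors. Its window bidir_147298 (chr7:138910054-138910653), centred 848 bp upstream of the start, measured 24.6, 21.5 and 22.5 CPM at 0 min, 14.5, 11.8 and 9.23 CPM at 15 min, and 18.0, 17.9 and 13.5 CPM at 30 min. All libraries of both later times lay below all of 0 min. The log2 change was -0.93 ± 0.20 at 15 min (SE, edgeR adjusted p = 0.00363) and -0.47 ± 0.19 at 30 min (edgeR adjusted p = 0.226), which was not called. From 15 to 30 min it was 0.47 ± 0.20, with an unadjusted p of 0.0285 and an edgeR adjusted p of 0.441.

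The window bidir_147296 (chr7:138908929-138909528), 277 bp inside the start, measured 17.7, 12.1 and 13.9 CPM at 0 min, 7.67, 7.05 and 6.80 CPM at 15 min, and 9.47, 7.08 and 7.58 CPM at 30 min. The 0 min libraries again lay above all 6 others. It fell by 1.02 ± 0.23 on the log2 scale at 15 min (edgeR adjusted p = 0.00542) and by 0.86 ± 0.22 at 30 min (edgeR adjusted p = 0.0456). This window shares bases with the untested bidir_147297, so reads may be common to both. A last window 2159 bp inside the gene, bidir_147295, ranged from 6.27 to 15.6 CPM and was called at neither time, with log2 changes of -0.39 ± 0.26 and -0.76 ± 0.27. There 0 min library 2 was lowest of the whole set and the other 2 untreated libraries highest, so the groups overlapped. Without that library the window was called lower at 30 min, at -1.08 (adjusted p = 0.0188), and at 15 min its change was -0.71 without it and -0.16 without 0 min library 1, neither called.

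The call at bidir_147298 held at 15 min with any 1 library left out, at adjusted p of 0.00423 to 0.0227. That at bidir_147296 was lost at 15 min without 0 min library 1 (adjusted p = 0.0536), and at 30 min without any of 6 single libraries, 0 min 1 and 3, 15 min 1 and each of 30 min (up to adjusted p = 0.288), or with scaling on gene-end windows (adjusted p = 0.0843).

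Ankrd37 encodes a small ankyrin repeat protein and is a known target of hypoxia-inducible factors. Its start window bidir_150761 (chr8:45999657-46000256) measured 50.8, 39.8 and 41.7 CPM at 0 min, 42.8, 43.5 and 43.2 CPM at 15 min, and 30.4, 40.6 and 35.3 CPM at 30 min. The 15 min libraries fell within the range of 0 min, and those of 30 min overlapped it. The log2 change was -0.04 ± 0.14 at 15 min, with a 95% interval of -0.33 to 0.26, and -0.32 ± 0.15 at 30 min (edgeR adjusted p = 0.289).

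The called window of this gene, bidir_150760 (chr8:45996241-45996840), lies 367 bp past its far end and inside the neighbouring gene Ufsp2, so its reads cannot be assigned to Ankrd37. It measured 14.7, 12.5 and 16.0 CPM at 0 min, 8.17, 9.15 and 6.56 CPM at 15 min, and 9.66, 8.39 and 6.16 CPM at 30 min, with 0 min above all others. The log2 change was -0.84 ± 0.23 at 15 min (edgeR adjusted p = 0.0215) and -0.82 ± 0.23 at 30 min (edgeR adjusted p = 0.0625). The 30 min change was called with only the 2 groups compared (adjusted p = 0.0484), with windows that overlap no other (adjusted p = 0.0451) and without 15 min library 3 (adjusted p = 0.0404). The 15 min call was lost without 0 min library 1, 0 min library 3 or 15 min library 1 (up to adjusted p = 0.0752), and with scaling on gene-end windows (adjusted p = 0.0722). The third window, bidir_150762, lay upstream at 1.57 to 2.84 CPM and was not called.

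P4ha1, which encodes a catalytic subunit of the collagen prolyl hydroxylase, had 0 called windows of 3 in any comparison by edgeR or by DESeq2, with 0 at 15 min and 1 at 30 min at an unadjusted p under 0.05 in edgeR. Its start window bidir_18306 measured 40.4, 26.4 and 30.4 CPM at 0 min, 25.2, 24.97 and 33.8 CPM at 15 min, and 19.7, 28.9 and 26.5 CPM at 30 min. The groups overlapped at both times, with log2 changes of -0.23 ± 0.18 and -0.38 ± 0.18 and unadjusted p of 0.221 and 0.0480. The intragenic window bidir_18307 was at 4.72 to 6.20 CPM at 0 min and 6.86 to 7.53 CPM at 15 min without overlap, but its log2 change of 0.41 ± 0.26 was not called (edgeR adjusted p = 0.364).

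**Figure D2:**
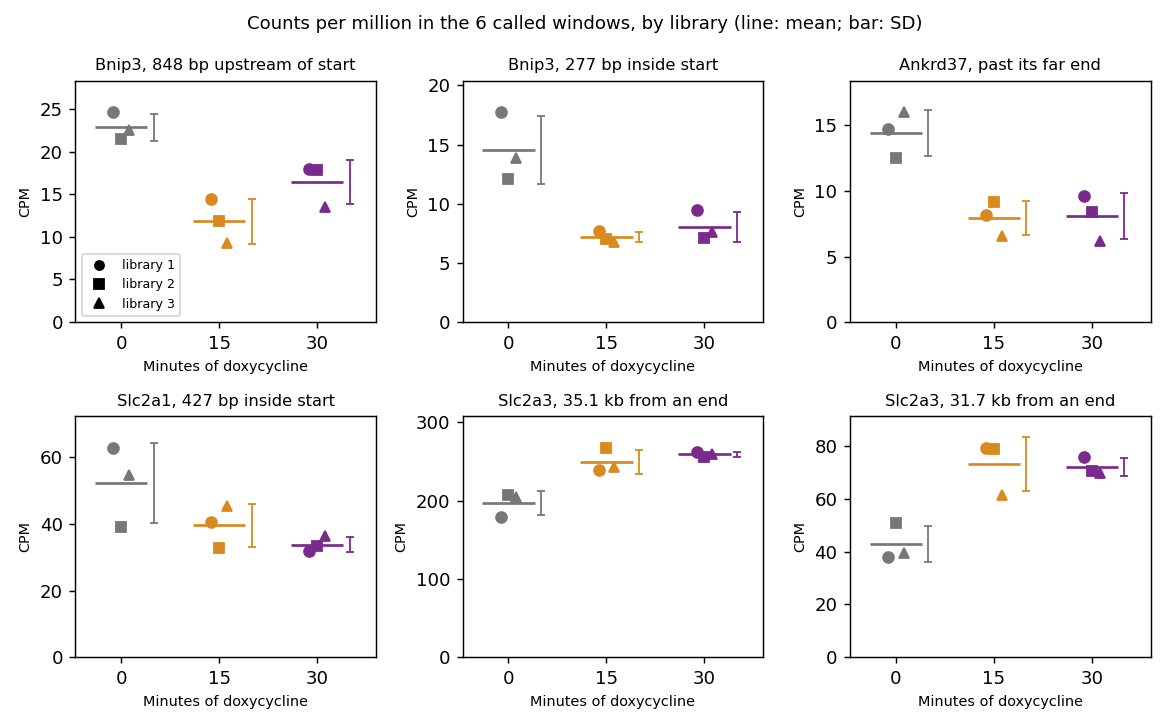
CPM by library, from 0, in the 6 windows called in at least 1 comparison, against minutes of doxycycline, with the mean as a line and the SD as a bar. Both Bnip3 windows and the Ankrd37 window lie highest at 0 min, where the upstream Bnip3 window has 21.5 to 24.6 CPM, and both Slc2a3 windows lie lowest at 0 min.

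Slc2a1 encodes GLUT1, the glucose transporter found in most cells. Its window bidir_112277 (chr4:119108872-119109471), 427 bp inside the start, measured 62.7, 39.2 and 54.5 CPM at 0 min, 40.7, 32.6 and 45.4 CPM at 15 min, and 31.7, 33.4 and 36.3 CPM at 30 min. At 15 min the groups overlapped and the log2 change of -0.41 ± 0.16 was not called (edgeR adjusted p = 0.122). At 30 min all 3 libraries lay below 0 min and the window fell by 0.63 ± 0.16 on the log2 scale (edgeR adjusted p = 0.0423). The 30 min call was lost without any of 0 min libraries 1 and 3, 15 min library 1 and the 30 min libraries (up to adjusted p = 0.289), and with scaling on gene-end windows (adjusted p = 0.0656). At 15 min the window was called without 0 min library 2 (adjusted p = 0.0218) or 15 min library 3 (adjusted p = 0.0419).

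The window just before the start, bidir_112276, overlaps bidir_112277, and both lie beside the start of the lncRNA gene Gm52706. The centre of bidir_112277 is 423 bp from that start. The counted strand is not given, so reads of either window cannot be assigned to Slc2a1 alone. The window bidir_112276 ranged from 6.10 to 11.5 CPM with overlapping groups and log2 changes of -0.20 ± 0.27 and 0.11 ± 0.26. At the other end of the gene bidir_112278 lay in a region 4984 bp wide and measured 202, 197 and 228 CPM at 0 min, 158, 189 and 166 CPM at 15 min, and 173, 187 and 181 CPM at 30 min. The 0 min libraries were above all others there, but the changes of -0.29 ± 0.10 (edgeR adjusted p = 0.0816) and -0.21 ± 0.10 (edgeR adjusted p = 0.326) were not called. At 15 min it was called lower with library size alone (adjusted p = 0.0470) and without 15 min library 2 (adjusted p = 0.0481).

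Slc2a3 encodes GLUT3, a glucose transporter of high affinity that is prominent in neurons and in early embryos. It held 10 of the 30 windows along 74.555 kb of annotated gene, of which 2 were called. No strand or start site was listed for Slc2a3, so which of its windows lies at a start is not known. Reads of windows inside this span cannot be assigned to the Slc2a3 transcript, and neither can their sum. The window bidir_135943 (chr6:122770381-122770980), 31.7 kb from the nearer annotated end, measured 38.1, 50.8 and 39.6 CPM at 0 min, 79.2, 78.9 and 61.5 CPM at 15 min, and 75.8, 70.4 and 69.7 CPM at 30 min. Every treated library was above every untreated one. It rose by 0.78 ± 0.14 on the log2 scale at 15 min (edgeR adjusted p = 0.000766) and by 0.75 ± 0.14 at 30 min (edgeR adjusted p = 0.00510).

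The window bidir_135942 (chr6:122762612-122763211), 35.1 kb from the nearer end, had the highest level of the 30, at 179, 207 and 205 CPM at 0 min, 239, 267 and 243 CPM at 15 min, and 262, 256 and 259 CPM at 30 min. Again no treated library reached down to the untreated range. It rose by 0.34 ± 0.10 at 15 min (edgeR adjusted p = 0.0282) and by 0.40 ± 0.10 at 30 min (edgeR adjusted p = 0.0328). The neighbouring bidir_135944, 29.5 kb from an end, was at 5.49 to 6.49 CPM at 0 min, 5.83 to 9.53 CPM at 15 min and 9.72 to 11.7 CPM at 30 min, with changes of 0.47 ± 0.25 (edgeR adjusted p = 0.273) and 0.82 ± 0.25 (edgeR adjusted p = 0.0908) that were not called.

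The other 7 windows of Slc2a3 were not called at any time by edgeR or by DESeq2, and of these 7 with bidir_135944, 0 at 15 min and 1 at 30 min had an unadjusted p under 0.05 in edgeR. The strongest of them, bidir_135939 (chr6:122742421-122743020), 14.9 kb from an end, measured 112, 105 and 101 CPM at 0 min, 107, 83.7 and 103 CPM at 15 min, and 111, 92.8 and 102 CPM at 30 min, and its groups overlapped. Its log2 change was -0.12 ± 0.12 at 15 min and -0.06 ± 0.12 at 30 min, with a 95% interval at 30 min of -0.30 to 0.19. The window 624 bp inside the opposite end, bidir_135948, went from 55.5 to 62.3 CPM at 0 min to 47.7 to 54.2 CPM at 15 min and 49.6 to 50.5 CPM at 30 min, and neither time overlapped 0 min. Its changes of -0.19 ± 0.12 and -0.21 ± 0.12 were not called. Differences between windows of the gene were not tested.

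The 2 windows that rose lie 55.3 and 63.1 kb from the start of Nanog, the pluripotency gene on the same side as the low-coordinate end of Slc2a3. The end window of Nanog was at 287 to 352 CPM at 0 min, 257 to 314 CPM at 15 min and 306 to 314 CPM at 30 min, with changes of -0.13 ± 0.10 (edgeR adjusted p = 0.445) and -0.02 ± 0.10 (edgeR adjusted p = 0.944). No contact between them was measured. The call at bidir_135943 held at 15 min with any 1 library left out, and at 30 min was lost without 0 min library 1 (adjusted p = 0.0556). That at bidir_135942 was lost at 15 min without 1 of 5 libraries, numbers 1 and 3 of 0 min, 1 and 2 of 15 min and 2 of 30 min (up to adjusted p = 0.168), and at 30 min without number 1 or 3 of 0 min or any of 30 min (up to adjusted p = 0.201). It was also lost with no filter on low counts, at adjusted p of 0.180 and 0.121, and at 15 min with only the 2 groups compared (adjusted p = 0.0691).

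**Figure D3:**
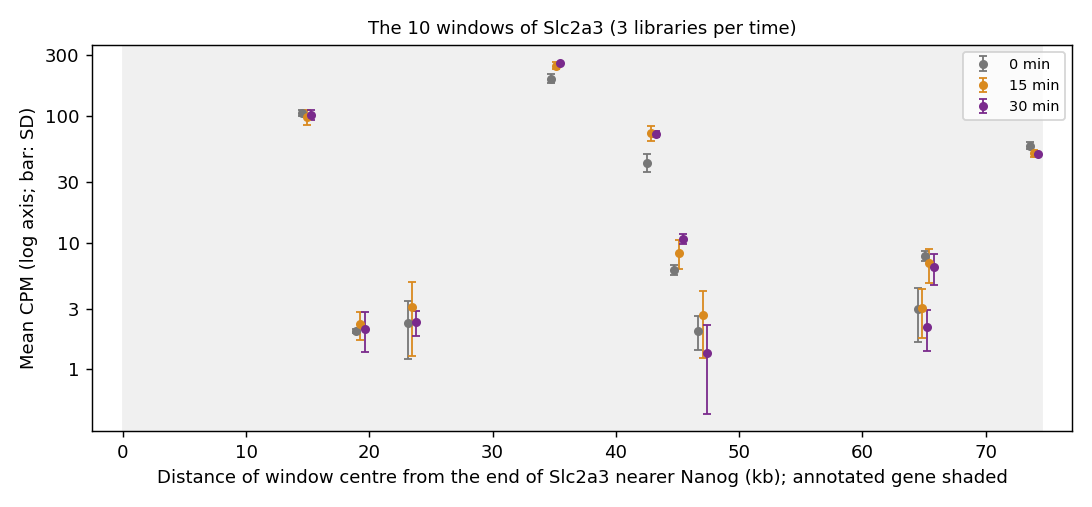
Mean CPM (log axis, bar: SD, n = 3 libraries per time) of the 10 windows of Slc2a3, against the distance of each window's centre in kb from the annotated end nearer Nanog. The points of 15 and 30 min lie above those of 0 min in the middle of the annotated span, at 35.1 and 42.9 kb, while those at 14.9 kb overlap and those at 73.9 kb lie below 0 min.

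The glycolytic enzyme genes Eno1, Pkm and Ldha had 0 of 7 windows called in any comparison by edgeR or by DESeq2, with 3 at 15 min, 1 at 30 min and 0 between the later times at an unadjusted p under 0.05 in edgeR. The start window of Eno1, bidir_116601 (chr4:150236843-150237442), measured 157, 128 and 127 CPM at 0 min, 120, 99.7 and 122 CPM at 15 min, and 130, 127 and 116 CPM at 30 min. It lay wholly below 0 min at 15 min but not at 30 min, with changes of -0.28 ± 0.12 (edgeR adjusted p = 0.144) and -0.15 ± 0.12 (edgeR adjusted p = 0.588). Inside the gene, bidir_116602 was at 71.2 to 72.1 CPM at 0 min, 56.8 to 57.7 CPM at 15 min and 60.9 to 66.8 CPM at 30 min. Both later times lay below 0 min, with changes of -0.32 ± 0.12 (edgeR adjusted p = 0.0854) and -0.16 ± 0.12 (edgeR adjusted p = 0.544).

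The start window of Pkm, bidir_160298, was at 96.2 to 102 CPM at 0 min, 94.97 to 118 CPM at 15 min and 90.1 to 104 CPM at 30 min. The groups overlapped, and the 95% intervals of the log2 change were -0.15 to 0.32 at 15 min and -0.28 to 0.19 at 30 min. The centre of bidir_160298 is also 508 bp from the start of the lncRNA gene Gm51708. As the counted strand is not given, its reads cannot be assigned to Pkm alone. The window 2912 bp after a start, bidir_160299, changed by 0.03 ± 0.11 and -0.17 ± 0.12. The start window of Ldha, bidir_141588, measured 68.2, 56.2 and 69.7 CPM at 0 min, 55.7, 56.8 and 67.8 CPM at 15 min, and 43.7, 58.7 and 52.1 CPM at 30 min. Its groups overlapped, with changes of -0.11 ± 0.14 and -0.33 ± 0.14 (edgeR adjusted p = 0.677 and 0.242). The window bidir_141587, which overlaps it across the start, was at 8.95 to 14.0 CPM at 0 min and 8.17 to 8.50 CPM at 15 min without overlap, with a change of -0.50 ± 0.23 (edgeR adjusted p = 0.184).

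Counts were also summed over all windows of each gene and tested among 21899 genes treated alike. Reads in bases shared by overlapping windows may be counted more than once in such sums. At 15 against 0 min 3 of the 8 genes were called lower and 0 higher by edgeR, against 13.3% of all genes called, 9.01% lower. By DESeq2 1 was called higher, and the number higher at an unadjusted p under 0.05 in edgeR was 1. Bnip3 summed to 61.8, 41.2 and 53.0 CPM at 0 min, 33.8, 27.8 and 25.5 CPM at 15 min, and 35.3, 34.1 and 29.2 CPM at 30 min. No treated library reached the untreated range, and the sum fell by 0.84 ± 0.16 at 15 min (edgeR adjusted p = 0.00425) and by 0.66 ± 0.16 at 30 min (edgeR adjusted p = 0.0440).

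Slc2a1 summed to 272, 248 and 290 CPM at 0 min and 206, 228 and 221 CPM at 15 min and fell by 0.31 ± 0.08 (edgeR adjusted p = 0.0216). Eno1 summed to 228, 199 and 200 CPM at 0 min and 177, 157 and 179 CPM at 15 min and fell by 0.29 ± 0.09 (edgeR adjusted p = 0.0343). Neither pair of groups overlapped. Both calls were lost with scaling on gene-end windows (adjusted p = 0.320 and 0.319), by the DESeq2 Wald test (adjusted p = 0.0682 and 0.102) and without 0 min library 1 or 15 min library 1. The call was also lost without 0 min library 3 for Slc2a1 and without 15 min library 2 for Eno1. The sum of Slc2a3 went from 415, 444 and 424 CPM at 0 min to 495, 509 and 489 CPM at 15 min, without overlap, with a change of 0.22 ± 0.07 that was not called (edgeR adjusted p = 0.0609). It was called higher with scaling on gene-end windows (adjusted p = 0.0254) and by the DESeq2 Wald test (adjusted p = 0.00956).

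At 30 against 0 min the sum of Bnip3 was the 1 called of the 8, against 2.32% of all genes, 1.28% of them lower. Without 0 min library 1 or 3 or any 30 min library it was not called (up to adjusted p = 0.224), nor with scaling on gene-end windows (adjusted p = 0.0745) or with windows that overlap no other (adjusted p = 0.0919). The sum of Slc2a3 was at 526, 493 and 507 CPM at 30 min, above all of 0 min, with a change of 0.25 ± 0.07 that edgeR did not call (adjusted p = 0.0851) and the DESeq2 Wald test called higher (adjusted p = 0.0178). The sums of Ankrd37 at 42.8 to 50.9 CPM and of Slc2a1 at 216 to 228 CPM also lay below their 0 min libraries at 30 min, with changes of -0.40 (edgeR adjusted p = 0.0864) and -0.27 (edgeR adjusted p = 0.0885). P4ha1, Ldha and Pkm were called at no time, with edgeR adjusted p of at least 0.218. Between 30 and 15 min 0 of 8 sums were called by edgeR and by DESeq2, with 0 at an unadjusted p under 0.05, against 0.735% of all genes called.

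**Figure D4:**
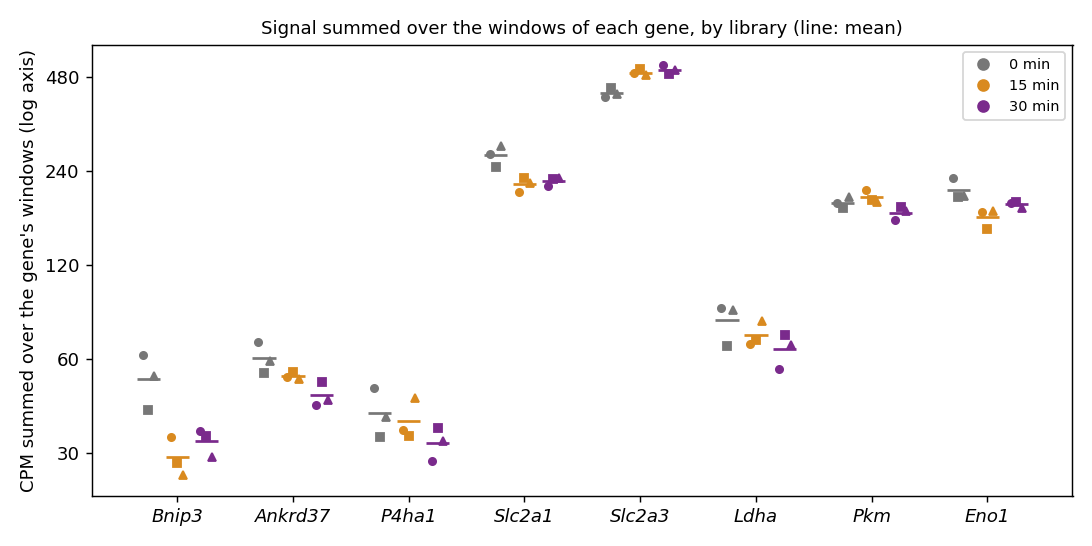
CPM summed over the windows of each of the 8 genes, by library and time (log axis, line: mean of 3 libraries). The number of windows differs between genes, so levels compare within a gene; Bnip3 lies at 41.2 to 61.8 CPM at 0 min and at 25.5 to 35.3 CPM at the later times, and Slc2a3 lies higher at both later times than at 0 min.

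Other genes of these pathways were read at the window with the highest mean count within 1 kb of either gene end. Of 87 listed genes 68 had a tested end window. The values given for all tested windows at gene ends also take in weaker windows of a gene. Shares were not compared at like depth. At 15 min 6 of the 68 (8.82%) were called lower by edgeR and 0 higher, against 7.96% and 1.81% of all tested windows at gene ends. By DESeq2 6 were lower and 0 higher, and 14 were lower and 1 higher at an unadjusted p under 0.05 in edgeR. At 30 min 2 (2.94%) were called lower and 0 higher, against 0.768% and 0.485%, with 5 lower and 0 higher at an unadjusted p under 0.05. Between the later times edgeR called 0, against 0.663%, with 5 at an unadjusted p under 0.05, and DESeq2 called 1 higher, Slc2a8. The median log2 change was -0.19 at 15 min and -0.21 at 30 min, against -0.16 and -0.12 for all tested windows at gene ends, and -0.04 and -0.10 with scaling on those windows. The count of 6 depended on single libraries: leaving out number 1 of 0 min gave 1, number 1 of 15 min gave 2, number 2 of 15 min or 3 of 0 min gave 4, and number 3 of 15 min gave 15. It was 3 with scaling on gene-end windows and 4 with only the 2 groups compared. The count of 2 at 30 min was 0 without number 1 of 0 min or 3 of 30 min, 1 without number 1 of 30 min, and 3 with no filter on low counts.

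Among hypoxia targets 2 of 20 fell, at both times. Bhlhe40, a transcriptional repressor gene, was at 29.8, 10.3 and 13.9 CPM at 0 min and 5.45 to 7.64 CPM in the 6 treated libraries, without overlap, with log2 changes of -1.43 ± 0.29 at 15 min (edgeR adjusted p = 0.00280) and -1.43 ± 0.29 at 30 min (edgeR adjusted p = 0.0102). The untreated library 1 stood far above the other 2 there, and without it the changes were -0.84 (adjusted p = 0.0759) and -0.83 (adjusted p = 0.209). The 30 min call was also lost without 30 min library 3 (adjusted p = 0.0705). Stc2, for a secreted glycoprotein, was at 39.3, 23.7 and 30.9 CPM at 0 min, 15.5 to 21.9 CPM at 15 min and 15.9 to 17.0 CPM at 30 min, and fell by 0.83 ± 0.19 (edgeR adjusted p = 0.00695) and by 0.93 ± 0.19 (edgeR adjusted p = 0.0104). Without 0 min library 1 its adjusted p was 0.0764 and 0.132, and a call was also lost without 15 min library 1 at 15 min and without 30 min library 1 or 3 at 30 min.

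Among glycolysis enzymes 1 of 11 fell at 15 min, Hk2, for the hexokinase that traps glucose as its phosphate, from 53.0 to 74.2 CPM to 40.5 to 41.8 CPM, by 0.57 ± 0.14 (edgeR adjusted p = 0.0129). At 30 min it was at 50.5 to 62.8 CPM, with a change of -0.15 ± 0.14. Of 7 glucose and lactate transporter genes Slc2a8 fell at 15 min, from 55.8 to 73.7 CPM to 35.8 to 43.0 CPM, by 0.65 ± 0.14 (edgeR adjusted p = 0.00486), and was at 50.01 to 66.1 CPM at 30 min. Its change from 15 to 30 min was 0.54 ± 0.14 (edgeR adjusted p = 0.0813), which DESeq2 called (adjusted p = 0.0464), as did edgeR with the replicate number as a block (adjusted p = 0.0445). Of 20 genes of pyruvate dehydrogenase and the TCA cycle 2 fell at 15 min, Ogdh, a subunit of oxoglutarate dehydrogenase, by 0.38 ± 0.12 (edgeR adjusted p = 0.0463), and Sdhc, a membrane subunit of succinate dehydrogenase, by 0.53 ± 0.15 (edgeR adjusted p = 0.0280). The calls of Hk2, Ogdh and Sdhc were lost with scaling on gene-end windows (adjusted p = 0.0653, 0.241 and 0.119) and without 0 min library 1 (adjusted p = 0.121, 0.172 and 0.0526). The call of each was also lost without 15 min library 1, those of Ogdh and Sdhc without 0 min library 3 or 15 min library 2, that of Sdhc without 0 min library 2, and that of Ogdh without 30 min library 2 or 3. With only the 2 groups compared Ogdh and Sdhc were not called (adjusted p = 0.0771 and 0.0505), nor was Ogdh with no filter on low counts (adjusted p = 0.0673). Of the genes of these 3 lists 0 were called at 30 min by edgeR or DESeq2, with 1 of them at an unadjusted p under 0.05.

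The machinery of hypoxia-inducible factors itself had 0 of 10 genes called at any time by edgeR with all libraries or by the DESeq2 Wald test, with 3 at 15 min and 1 at 30 min at an unadjusted p under 0.05. Egln1, for the main prolyl hydroxylase, was at 22.5, 11.9 and 17.3 CPM at 0 min and 5.00, 7.43 and 16.0 CPM at 15 min. The third library at 15 min lay within the untreated range, and the change was -0.92 ± 0.30 (edgeR adjusted p = 0.0523). It was called lower at 15 min with the replicate number as a block (adjusted p = 0.0362), with DESeq2 size factors (adjusted p = 0.0468), with library size alone (adjusted p = 0.0389), with no filter on low counts (adjusted p = 0.00239, and 0.0375 at 30 min), with windows that overlap no other (adjusted p = 0.0392) and without 0 min library 2 (adjusted p = 0.0160). Without 15 min library 3 the change was -1.50 (adjusted p = 0.000460), and 5 of the 10 genes were called lower at 15 min. Ep300, for a histone acetyltransferase that these factors recruit, had a change of -0.42 ± 0.17 at 15 min (edgeR adjusted p = 0.134), and of -0.74 without 15 min library 3 (adjusted p = 0.000889).

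**Figure D5:**
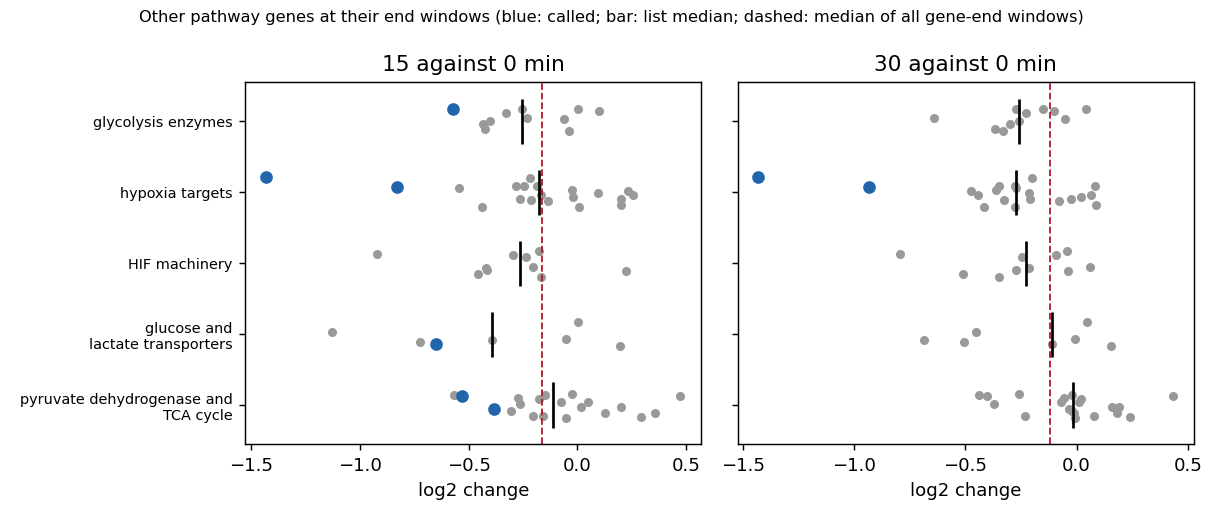
Log2 change of the end window of each other pathway gene at 15 and at 30 min against 0 min, by list, with the list median as a bar and the median of all tested gene-end windows (-0.16 and -0.12) dashed. Blue marks the 6 windows called lower at 15 min and the 2 at 30 min, Bhlhe40 and Stc2; 0 were called higher.

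The end window of Bnip3 with the highest mean count was bidir_147298, centred 848 bp upstream of the start. The genes whose end window was most like it, by Pearson correlation of log2 CPM over the 9 libraries among 11564 end windows of other genes, were Upf2 (0.985), Bdkrb2 (0.967) and Gas6 (0.962). This is a description over libraries that share depth and time, without a test.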

How the data were processed

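The members and gene lists were chosen with earlier results of these data known. The deposited table holds raw read counts per window and library, and the deposited region lists hold other values, namely coordinates on mm10. Per the submitters' processing notes HISAT2, featureCounts and DESeq2 1.26.0 were used, with roles, settings and counted strand not given in the sources used here. Counts were tested in R 4.3.3 with edgeR 4.0.16 (filterByExpr, TMM factors, quasi-likelihood fit of all 9 libraries with time as a factor, Benjamini-Hochberg adjustment at 0.05) and checked with DESeq2 1.42.0. Of 174289 windows 119990 were removed by the filter. Replicates varied by 15.1% (square root of the common dispersion), and totals count reads in windows, not sequencing depth. The SE is the log2 change divided by the square root of F. Drosophila nuclei were mixed in per the labels, and their counts were not used here, so changes are relative to other mouse windows.

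The text names the 8 genes with every window. From each other list it names members called in any comparison (up to 4 per list and comparison by smallest p), otherwise the 2 with the smallest p at 15 min. For a gene whose end window of highest mean count was called, it names the 3 most correlated end windows. Libraries of the same number were not taken as paired, since the labels do not state that they are. Correlations of their deviations were -0.05 to 0.18, against -0.20 to 0.10 between libraries of different number and time. Alternatives were other size factors, no scaling factor, scaling on gene-end windows, other filters, 2 groups alone, a replicate block, DESeq2, windows without overlap, narrower membership, and each library left out.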

Additional observations from a re-analysis of the deposited data

How the results depend on the processing

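The called windows at 15 against 0 min numbered 5, and 3 when only windows centred inside a gene were counted, since that drops the Bnip3 window upstream of the start and the Ankrd37 window past its end. Those at 30 against 0 min numbered 4, and 2 with scaling on gene-end windows, both higher. The genes called by summed windows at 30 against 0 min numbered 1, and 0 with scaling on gene-end windows or with windows that overlap no other, and 2 by the DESeq2 Wald test, Bnip3 lower and Slc2a3 higher. With 1 library left out in turn, called windows ranged from 2 to 6 at 15 min and from 0 to 5 at 30 min, and called genes from 1 to 3 and from 0 to 1; between 30 and 15 min both stayed at 0. The lowest counts, 2 windows at 15 min and 0 at 30 min, came without 0 min library 1. With 15 min library 1 left out 3 windows were called at 15 min and 2 at 30 min, without 0 min library 3 the counts were 3 and 1, and without any 30 min library 1 was called at 30 min. Libraries correlated best with one of their own number in 4 of 9 cases. With the replicate number as a block the counts were 5, 4 and 0 windows and 3, 1 and 0 genes, unchanged. Among the other named genes, Egln1 at 15 min (edgeR adjusted p = 0.0362) and Slc2a8 between 30 and 15 min (edgeR adjusted p = 0.0445) then gained a call. Over the single windows and genes, 2338 values kept their side of the threshold, while 77 lost and 22 gained a call. Of the called changes 0 reversed in sign. Most of the 2338 belong to windows and genes not called in the main fit, which had no call to lose. The 77 lost calls are therefore to be set against the calls made, not against this total. Window depth limits what can be seen: the 6 tested windows with a mean under 3 CPM had SE of 0.42 to 0.56 on the log2 scale. The cause of the other changes was not tested.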
